A study of Saccharomyces cerevisiae with 32 samples.

Results

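The genes described here encode the yeast peroxisome and its fatty acid beta-oxidation pathway. They were chosen by name, as every gene of the deposited table whose symbol starts with *PEX* and a number, together with 12 named genes (*POX1*, *FOX2*, *POT1*, *FAA2*, *PXA1*, *PXA2*, *CTA1*, *ECI1*, *DCI1*, *SPS19*, *INP1* and *INP2*). This gave 39 of the 6328 genes in the table, 27 of them *PEX* genes. All 39 were among the 5801 genes with a mean RPKM (reads scaled by gene length and library total) of at least 1, which were the genes tested. The genes for Pex9 and Pex35 stand in the table without a *PEX* symbol and are not included.

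RNA was sequenced from 3 *Saccharomyces cerevisiae* strains of one lineage. Y22-3 is an engineered parent that carries a xylose isomerase, a xylulose kinase and a transaldolase gene together with G418 resistance. Y127 was evolved from Y22-3 on xylose in the presence of oxygen, and Y128 was evolved from Y127 on xylose without oxygen, so that all 3 strains share the inserted genes and each stage is represented by 1 strain. Each strain was cultured in rich medium with 2% xylose or 2% glucose, anaerobically (-O2) or aerobically (+O2), with 2 libraries in each of these 12 groups. Y22-3 and Y128 were also sampled once each in 2% galactose and 2% sorbitol at both oxygen levels. The descriptions of the samples state that neither Y22-3 nor Y127 grew in anaerobic xylose and that neither strain tested grew in sorbitol, so that these cells came from a saturated overnight culture held without growth, whereas Y128 grew in anaerobic xylose. Growth and strain therefore cannot be told apart in anaerobic xylose. For aerobic xylose the descriptions record growth of Y22-3, whereas the study describes its metabolism as lacking xylose use, so that the growth state behind the aerobic xylose values of Y22-3 is uncertain.

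Library totals, recovered from the deposited values, ranged from 7.53 M to 24.1 M reads. Genes that mark the culture conditions followed most labels. *DAN1*, an anaerobic cell wall gene, stood between 7.70 and 11.43 log2 RPKM in the anaerobic libraries of all strains on glucose and of Y127 and Y128 on xylose, against 0.17 or less in every aerobic library on those sugars. In the Y22-3 libraries labelled anaerobic xylose *DAN1* was only at -0.07 and 1.17 log2 RPKM, while *FET3*, an oxidase that uses oxygen in iron uptake, averaged 3.68 there, against 8.42 in aerobic xylose. The study itself reports that most classical hypoxic genes were largely uninduced in anaerobic xylose cultures of Y22-3. The median change of all tested genes was also far from 0 in this group, at -1.28 on the log2 scale against aerobic xylose, and changes in it are therefore given beside that median.

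Peroxisomes are the site of fatty acid beta-oxidation in yeast. Medium-chain fatty acids are activated inside the organelle by the acyl-CoA synthetase Faa2, and long-chain acyl-CoAs enter through the Pxa1-Pxa2 transporter. Pox1 oxidises the acyl-CoA and releases hydrogen peroxide, which the catalase Cta1 removes. Fox2 then hydrates and dehydrogenates the product, and the thiolase Pot1 cleaves off acetyl-CoA. Sps19, Eci1 and Dci1 are counted with the auxiliary enzymes for unsaturated fatty acids, although the role of Dci1 is less certain. The *PEX* genes encode peroxins, which import these proteins, insert membrane proteins, and set the size and number of the organelles. In textbook accounts the enzyme genes are repressed by glucose and induced by oleate, through the heterodimer of Oaf1 and Pip2 at the oleate response element and through Adr1.

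The oleate response element is shown here because the enzyme genes shared it in far larger part than the peroxins did. The pattern CGGNNNTNA, followed by 8 to 12 bases and CCG, was searched on both strands in the 500 bases before the start codon of each nuclear protein-coding gene of the S288C reference (RefSeq, R64). The reads were mapped by the authors to the Y22-3 genome, whose sequence was not used here and may differ at these places. Of the 6000 promoters searched 2.12% held a match, and 9 of the 10 promoters of the enzyme, transporter and catalase genes did, the exception being *PXA1*. Of the 27 *PEX* promoters 6 held one (*PEX2*, *PEX5*, *PEX6*, *PEX11*, *PEX13* and *PEX17*). *PEX18*, the *PEX* gene that moved most, held none. The matches of the enzyme group and of *PEX11* are printed 5′ to 3′ in the direction of the gene, with the terminal triplets CGG and CCG in capitals and 3 further bases on either side. The strand given is that of the gene. For *FAA2*, both *FOX2* matches and the first *POX1* match the pattern lies on the opposite strand and is read in the reverse complement.
POT1, chrIX:41607-41635, minus strand: aaaCGGggataatagtattaacaCCGcag
POX1, chrVII:107843-107871, plus strand: ttaCGGtattagttgattaaactCCGaag
POX1, chrVII:107880-107908, plus strand: attCGGtcattagcggctaatagCCGttg
FOX2, chrXI:457334-457361, minus strand: ttcCGGaagcctagttttaagtCCGaaa
FOX2, chrXI:457302-457328, minus strand: cgaCGGggaaatttgttaacgCCGtat
SPS19, chrXIV:259409-259438, plus strand: tcaCGGcgttaagtatatcaaactCCGtca
ECI1, chrXII:707188-707216, minus strand: cgaCGGgcataagaaatattattCCGaaa
DCI1, chrXV:675283-675312, minus strand: tagCGGctgtaagcgcgctaaactCCGaca
FAA2, chrV:184352-184380, plus strand: ctcCGGaccgtcagtctttaacgCCGagc
PXA2, chrXI:89032-89061, minus strand: cttCGGcgttaattacaactatcaCCGtaa
CTA1, chrIV:969863-969892, minus strand: ggaCGGctttaacaaatataaactCCGaaa
PEX11, chrXV:48753-48781, minus strand: cgtCGGcatttatctcggagaacCCGaag

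In these genes the element lay between 113 and 312 bases before the start codon. The Adr1 hexamer TTGGAG, searched the same way on both strands, was in 6 of the 10 enzyme-group promoters, in 8 of the 27 *PEX* promoters and in 18.5% of all promoters. A match describes these letters and does not show that a factor binds there. Textbook accounts already name the enzyme genes as targets of the oleate response element, so their larger share of matches is not independent evidence.

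Across the 12 duplicated groups the enzymes and the peroxins differed in how far they moved. The difference between the highest and the lowest group mean had a median of 7.17 on the log2 scale over the 10 enzyme, transporter and catalase genes, against 2.14 over the 26 *PEX* genes other than *PEX18* and 3.03 over all genes tested. The widest range was 10.68, for *POX1*. Of the 10 enzyme-group genes, 8 had their highest mean in aerobic xylose cultures of Y22-3, the group that was highest for 13.1% of all genes, and the other 2, *PXA1* and *SPS19*, peaked in Y22-3 in anaerobic xylose. The lowest mean of 7 of the 10 was in aerobic glucose cultures of Y128, which was the lowest group for 985 of the 5801 genes.

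**Figure D1:**
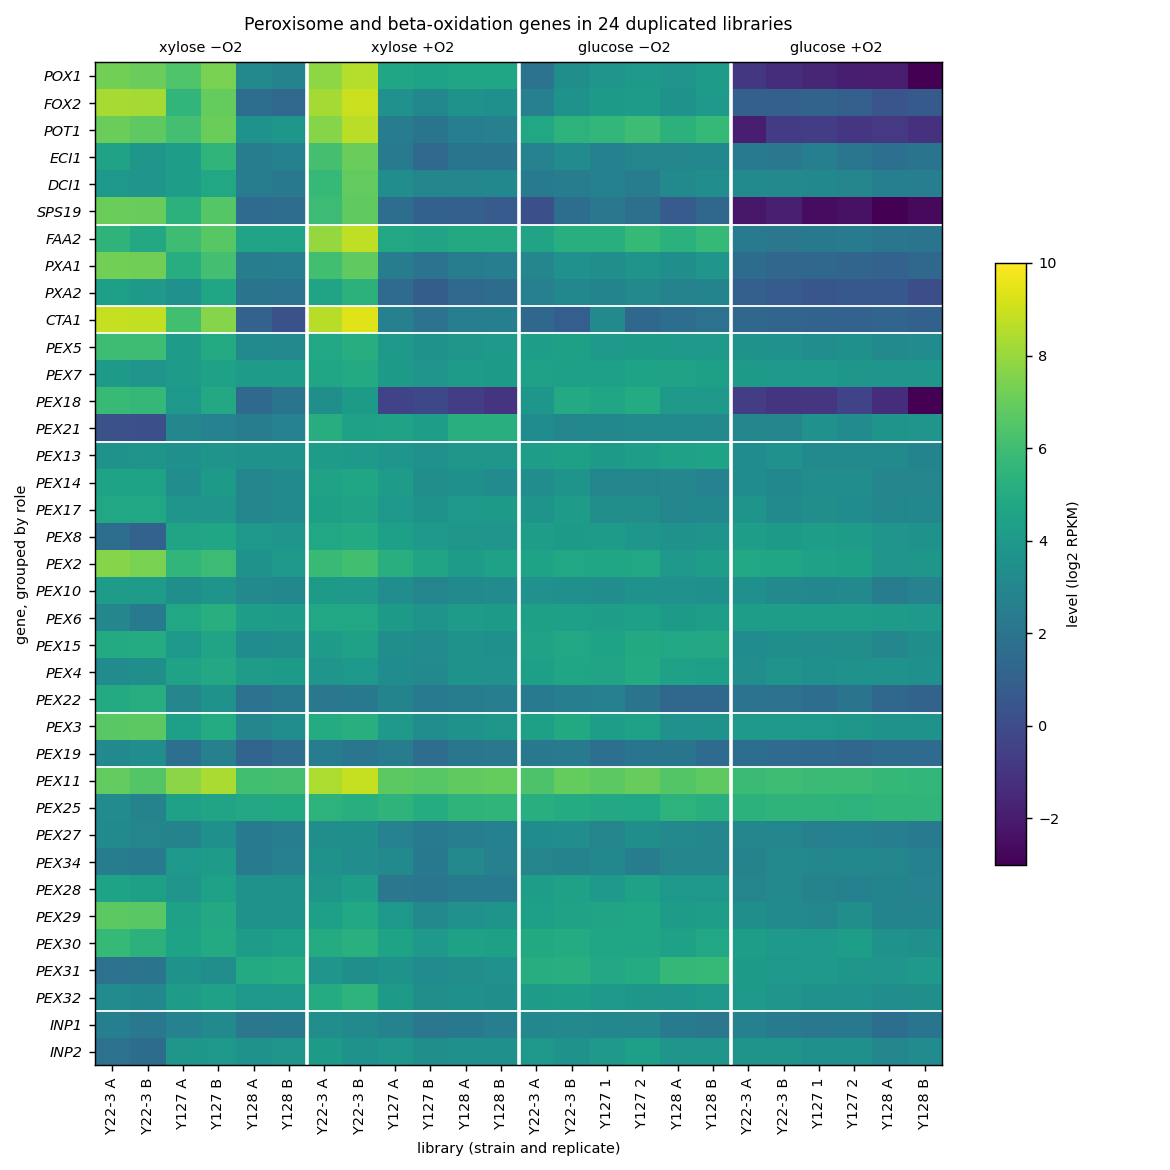
Level of the genes reported by name (rows, grouped by role) in the 24 duplicated libraries (columns, by sugar, oxygen, strain and replicate), as log2 RPKM by colour. *POX1*, *POT1* and *SPS19* are at 5.91 or above in aerobic xylose cultures of Y22-3, against below 0 in every aerobic glucose library, while most *PEX* rows change less.

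The first comparison asked how the genes responded to xylose in place of glucose when oxygen was present. In Y22-3, whose growth in this medium is uncertain, the beta-oxidation genes rose, with all 10 enzyme-group genes past the test (limma on log2 RPKM over all 5801 genes, Benjamini-Hochberg adjusted p under 0.05) and a median change of 6.82, against 0.11 for all genes. *POX1* stood at 7.80 and 8.54 log2 RPKM in xylose, against -0.88 and -1.27 in glucose, a difference of 9.25 ± 0.39 (SE, limma adjusted p = 1.27e-13). *POT1* was at 7.62 and 8.64 in xylose, against -1.92 and -0.76 in glucose, a difference of 9.47 ± 0.36. For both genes the xylose libraries stood far above both glucose libraries, in which *POX1* had 3 to 21 and *POT1* 5 to 13 recovered reads over the 3 strains.

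*FOX2* had 8.23 and 8.94 log2 RPKM in xylose cultures of Y22-3, against 0.99 and 0.98 in glucose. *CTA1* had 8.59 and 9.39 in xylose, against 1.33 and 1.26 in glucose, a difference of 7.70 ± 0.48. These 2 genes were better covered at the low end, with 60 to 96 reads for *FOX2* and 44 to 72 for *CTA1* in the aerobic glucose libraries. For *SPS19* the glucose level rested on 0 to 3 reads a library, and no fold is given for it against aerobic glucose: it stood at 5.91 and 6.81 in xylose cultures of Y22-3, against -2.19 and -1.83 in glucose. Without *SPS19* the median change of the enzyme group was 6.04.

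The transport and activation genes followed the enzymes. *FAA2* was at 7.95 and 8.73 log2 RPKM in xylose cultures of Y22-3 and at 2.42 and 2.17 in glucose. *PXA1* was at 6.04 and 6.81 in xylose and at 1.57 and 1.30 in glucose, and *PXA2* at 4.60 and 5.34 in xylose and at 0.98 and 0.80 in glucose. Among the auxiliary genes, *ECI1* was at 6.18 and 7.04 in xylose, against 2.34 and 2.21 in glucose, and *DCI1* at 5.72 and 6.86, against 3.24 and 3.12. For all 10 genes replicate B of the xylose culture was the higher one, by 0.71 to 1.14.

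Of all 39 genes, 31 rose and 0 fell in this comparison in Y22-3, where 31.0% of all tested genes rose and 22.1% fell (53.2% in all). The *PEX* genes took part with small changes. Apart from *PEX18*, 19 of 26 rose, with a median of 0.93, and *PEX11* had the largest change of these, at 2.70.

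In the evolved strains the same genes responded less to aerobic xylose. In Y127, 10 of the 39 genes rose and 2 fell, where 14.0% of all genes rose and 25.8% fell (39.8% in all). With each library centred on its median these counts became 20 and 0. In Y128, 19 rose and 0 fell, where 24.3% of all genes rose and 18.6% fell (42.9% in all). The enzyme-group median was 1.73 in Y127, where 6 of 10 rose, and 2.15 in Y128, where 8 of 10 rose, against -0.22 and 0.02 for all genes in these strains. Without *SPS19* the medians were 1.196 in Y127 and 1.465 in Y128.

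*POX1* had the widest response in both evolved strains. It was at 4.63 and 4.55 log2 RPKM in xylose cultures of Y127, against -1.61 and -1.92 in glucose, and in Y128 at 4.68 and 4.71 in xylose, against -2.03 and -2.99 in glucose. *POT1* was at 2.47 and 2.04 in xylose cultures of Y127, against -0.64 and -0.92 in glucose, and in Y128 at 2.56 and 2.67, against -0.84 and -1.15. The *POT1* changes of 3.03 ± 0.36 in Y127 and 3.61 ± 0.36 in Y128 were well beyond the spread of the duplicates. *SPS19*, the short-chain reductase gene, was at 1.71 and 1.05 in xylose cultures of Y127 and averaged 0.88 in those of Y128, again against glucose levels of 3 reads or fewer.

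Some genes of the pathway did not pass the test in the evolved strains. *CTA1* had 2.66 and 1.93 log2 RPKM in xylose cultures of Y127, against 1.13 and 1.06 in glucose. *ECI1* had 2.35 and 1.45 in xylose cultures of Y127, against 2.63 and 2.08 in glucose, and 2.04 and 2.00 in xylose cultures of Y128, against 1.76 and 2.01 in glucose. Xylose and glucose libraries overlapped for *ECI1* in both strains. *PEX28*, at -0.62, and *PEX31*, at -0.45, were the genes that fell in Y127, and neither passed the test after centring.

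**Figure D2:**
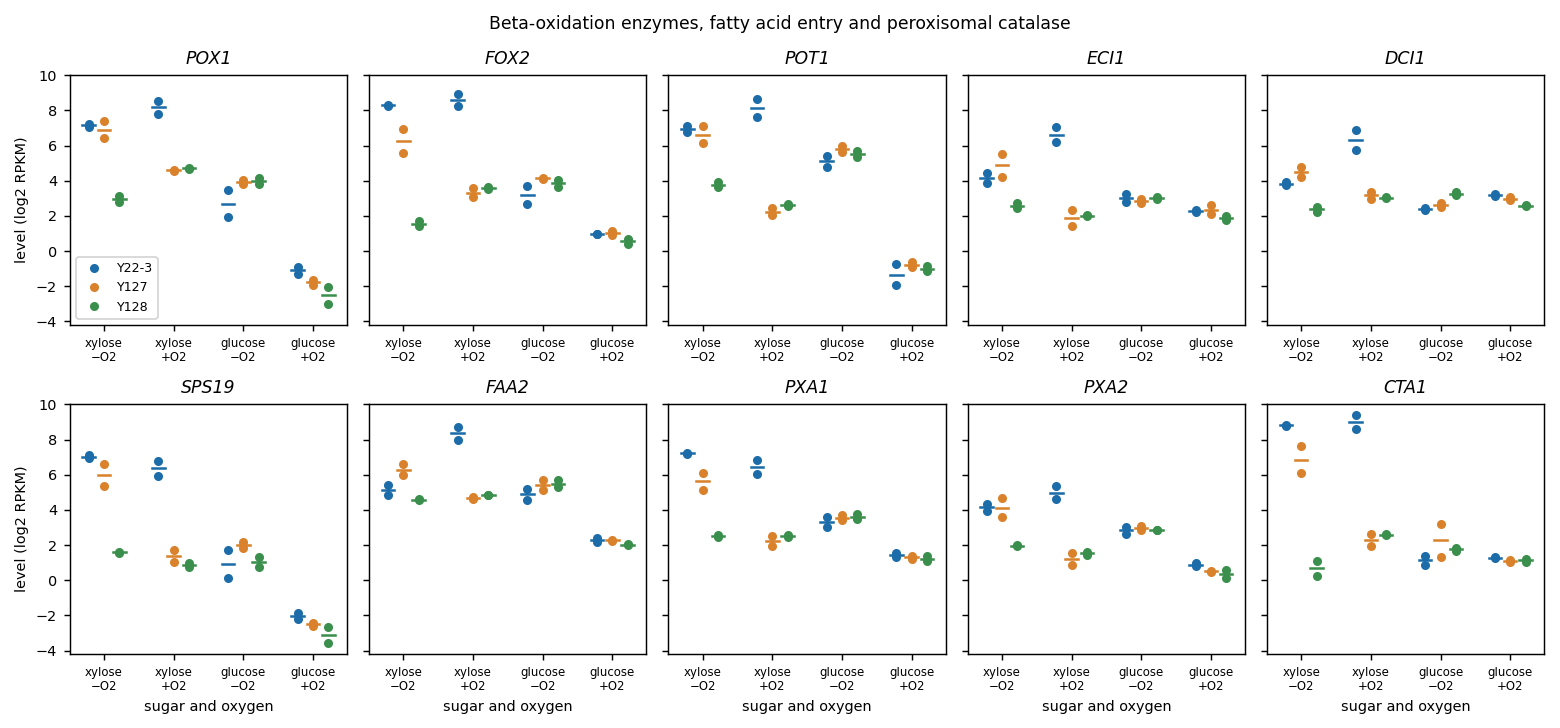
Level (log2 RPKM) of the 10 enzyme, transporter and catalase genes by sugar and oxygen in each strain, with points for libraries and lines for the means of 2. Y22-3 points in aerobic xylose lie at 4.60 or above for all 10 genes, while those of both evolved strains lie at 4.87 or below.

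Compared directly in aerobic xylose, all 10 enzyme-group genes were lower in Y127 than in Y22-3, by a median of -4.45, where all genes had a median of -0.34. *CTA1* fell by 6.70 ± 0.48 (limma adjusted p = 1.41e-09), *POT1* by 5.88 and *FOX2* by 5.27, and the smallest difference of the 10 was -3.11, for *DCI1*. None of the 39 genes was higher in Y127 and 32 were lower, where 38.7% of all genes were lower and 10.4% higher (49.0% in all). Fitted on the compared libraries alone, 20 were lower.

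Y128 stood apart from Y22-3 in nearly the same way. All 10 enzyme-group genes were lower in Y128, by a median of -4.25, and of the 39 genes 29 were lower and 0 higher, where 31.2% of all genes were lower and 16.3% higher (47.5% in all). *CTA1* fell by 6.39 and *POT1* by 5.51. Between Y128 and Y127 in aerobic xylose, by contrast, only *PEX21* passed the test, at 5.20 and 5.16 log2 RPKM in Y128, against 4.51 and 4.31 in Y127 (0.77 ± 0.20, limma adjusted p = 0.0452), where 2.43% of all genes passed, 1.52% higher and 0.914% lower. This call was lost under centring, which called *PEX2* lower instead, and with no filter on low values, with the compared libraries alone and without either Y128 library. The enzyme-group differences between these strains ran from -0.51 to 0.37.

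The response to xylose itself was tested between strains. The change was more negative in Y127 than in Y22-3 for 24 of the 39 genes and more positive for 0, where 16.7% of all genes differed in the first direction and 2.81% in the second (19.5% in all). Without replicate B of the aerobic xylose cultures of Y127 15 genes passed. It was more negative in Y128 than in Y22-3 for 17 genes and more positive for 0, where 8.50% and 7.48% of all genes differed in these directions (16.0% in all). All 10 enzyme-group genes were among them in both comparisons, with *CTA1* at -6.50 ± 0.68 in Y127 and -6.23 ± 0.68 in Y128. Between Y128 and Y127 limma called 0 of 39, with 3 at an unadjusted p under 0.05, where 2.12% of all genes differed.

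The next comparison was the loss of oxygen on glucose, where all 3 strains grew. Of the 10 enzyme-group genes 7 rose and 1 fell in Y22-3, 8 rose in Y127 and 9 rose in Y128. Of the 39 genes, 22 rose and 1 fell in Y22-3, where 37.7% of all genes rose and 27.6% fell (65.4% in all). In Y127 22 rose and 1 fell, where 35.3% and 32.9% did (68.2% in all), and in Y128 25 rose and 1 fell, where 39.6% and 28.8% did (68.4% in all). The counts moved to 17 and 3, 21 and 5, and 21 and 4 in these strains after centring. Enzyme-group medians were 2.08 in Y22-3, 2.78 in Y127 and 2.89 in Y128, against 0.15, 0.02 and 0.18 for all genes. Without *SPS19* they were 1.96, 2.48 and 2.49 in the same order. In all 3 strains the same 18 genes rose, 7 of them of the enzyme group and 11 of them *PEX* genes, where 29.9% of all genes rose in all 3 strains.

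*POT1* had the largest change in each strain. It stood at 4.81 and 5.42 log2 RPKM without oxygen in Y22-3, against -1.92 and -0.76 with oxygen, a difference of 6.45 ± 0.36 (limma adjusted p = 9.67e-12). In Y127 it was at 5.62 and 5.99, against -0.64 and -0.92, and in Y128 at 5.35 and 5.70, against -0.84 and -1.15. The anaerobic libraries of each strain stood above every aerobic one.

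*POX1* was at 1.95 and 3.45 log2 RPKM in anaerobic cultures of Y22-3, against -0.88 and -1.27 in aerobic ones. The anaerobic level was higher in the evolved strains, at 3.82 and 4.06 in Y127 and at 3.80 and 4.14 in Y128, against -1.61 and -1.92 in Y127 and -2.03 and -2.99 in Y128 with oxygen. *FOX2* had 2.68 and 3.70 in anaerobic cultures of Y22-3. Its anaerobic levels were 4.11 and 4.16 in Y127, and those of Y128 were 3.64 and 4.05, against aerobic levels between 0.43 and 1.16. Replicate A of anaerobic glucose in Y22-3 was the lower one for all these genes.

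*FAA2*, *PXA1* and *PXA2* rose in all 3 strains, by 1.88 to 3.46. *SPS19* was between 0.15 and 2.17 without oxygen, against levels of 3 reads or fewer with oxygen. *CTA1*, *ECI1* and *DCI1* did not rise in all 3 strains. *ECI1* was at 2.78 and 3.27 in anaerobic cultures of Y22-3, against 2.34 and 2.21 in aerobic ones, and did not pass. Nor did it pass in Y127, at 2.71 and 2.98, against 2.63 and 2.08. It rose in Y128, at 2.98 and 3.05, against 1.76 and 2.01. *CTA1* was at 1.41 and 0.88 in anaerobic cultures of Y22-3, against 1.33 and 1.26 in aerobic ones, and did not pass in Y22-3 or Y128. It passed in Y127, at 3.19 and 1.34, against 1.13 and 1.06, with duplicates that differed more from each other than the second anaerobic one did from the aerobic libraries. *DCI1* fell in Y22-3, at 2.31 and 2.47, against 3.24 and 3.12, and rose in Y128, at 3.17 and 3.37, against 2.60 and 2.58.

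The loss of oxygen on xylose separated the strains. In Y127, whose cells did not grow in anaerobic xylose, all 10 enzyme-group genes rose, with a median of 2.95 against 0.13 for all genes. In Y128, which grew, 1 rose and 3 fell, with a median of -0.15 against -0.11 for all genes. In Y22-3, which did not grow, 1 rose and 6 fell as deposited, with a median of -0.92 against -1.28 for all genes, and 3 rose and 3 fell after centring.

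Over the 39 genes, 28 rose and 2 fell in Y127, where 33.6% of all genes rose and 23.5% fell (57.1% in all). In Y128 6 rose and 11 fell, where 21.0% and 26.3% did (47.3% in all). In Y22-3 9 rose and 21 fell, where 20.7% and 63.7% did (84.4% in all), and after centring 20 rose and 12 fell.

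**Figure D3:**
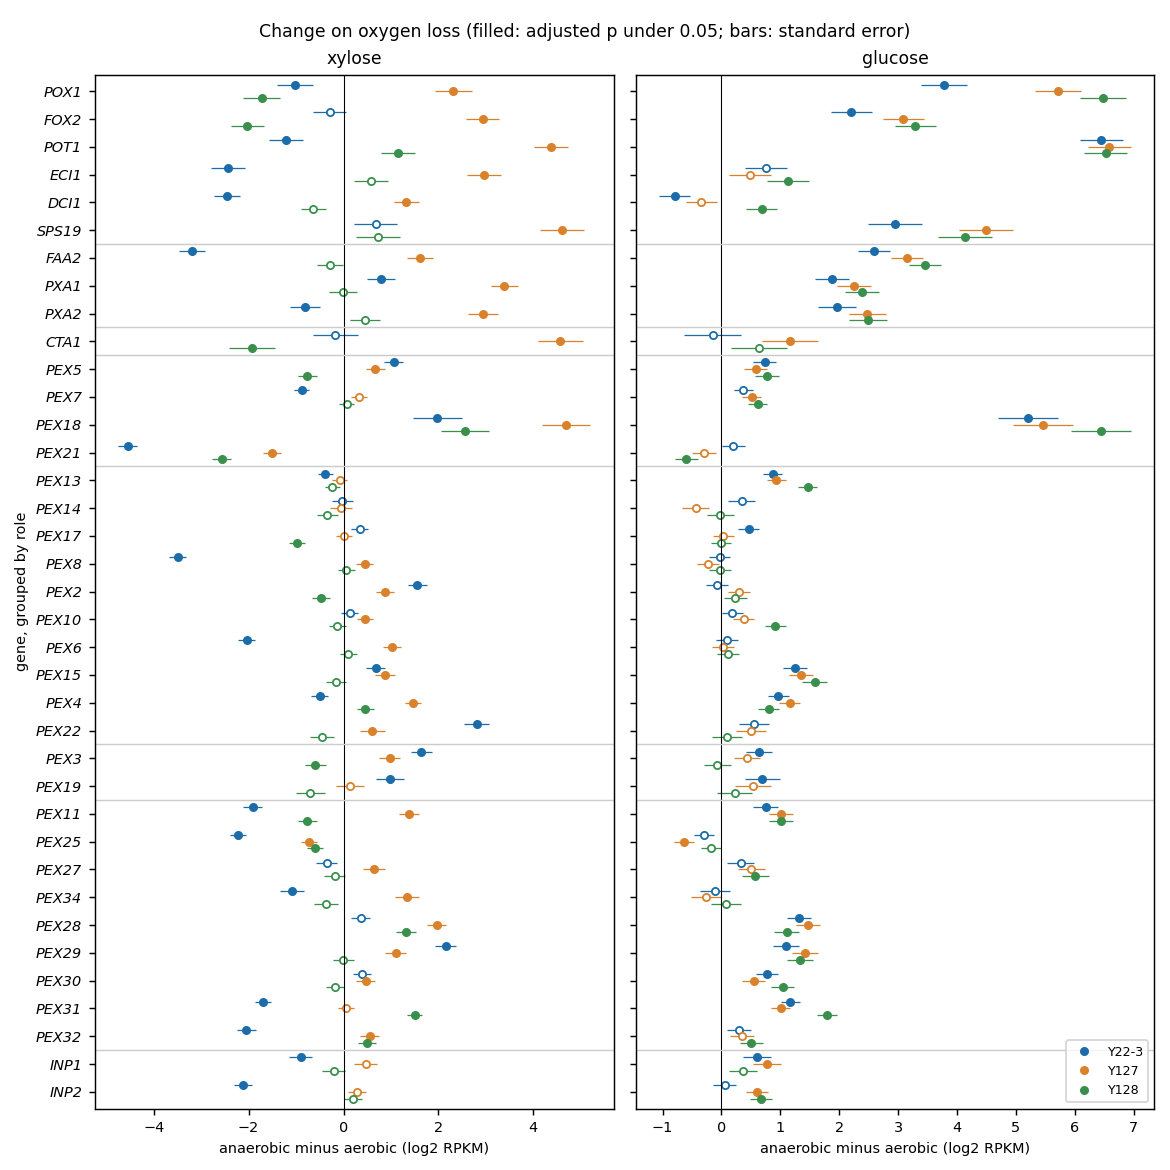
Anaerobic minus aerobic difference (log2 RPKM) of the genes reported by name on xylose (left) and glucose (right), with standard errors, filled points where the adjusted p was under 0.05 and colours for the strains. On glucose *POT1* lies at 6.45 to 6.58 in the 3 strains and *POX1* at 3.78 in Y22-3, 5.71 in Y127 and 6.48 in Y128, while on xylose *CTA1* lies at 4.57 in Y127, -0.17 in Y22-3 and -1.93 in Y128.

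*CTA1* showed the widest divergence. It was at 6.07 and 7.65 log2 RPKM in anaerobic xylose cultures of Y127, against 2.66 and 1.93 with oxygen. In Y128 it was at 1.11 and 0.24 without oxygen, against 2.57 and 2.63 with oxygen, a difference of -1.93 that became -1.49 and lost its call without replicate B of the anaerobic culture. In Y22-3 it was at 8.85 and 8.78, against 8.59 and 9.39, so that the high aerobic level was matched without oxygen.

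*POT1* had 6.14 and 7.10 in anaerobic xylose cultures of Y127, against 2.47 and 2.04 with oxygen (4.37 ± 0.36, limma adjusted p = 7.30e-09). In Y128 it rose by 1.15, with 3.62 and 3.90 against 2.56 and 2.67, a call that was lost without Y128 aerobic replicate A or anaerobic replicate B. In Y22-3 it fell, with 7.10 and 6.75 against 7.62 and 8.64, a change close to the median of all genes. *FOX2* was at 5.55 and 6.93 in anaerobic Y127 and fell by 2.02 in Y128, with 1.68 and 1.43 against 3.62 and 3.54.

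*SPS19* was at 5.36 and 6.60 in anaerobic xylose cultures of Y127, against 1.71 and 1.05 with oxygen, and at 7.10 and 6.97 in Y22-3, against 5.91 and 6.81. *FAA2* had the largest fall of the enzyme group in Y22-3, with 5.44 and 4.86 against 7.95 and 8.73 (-3.19 ± 0.27), which is beyond the median of all genes. *ECI1* (-2.43) and *DCI1* (-2.46) also fell beyond that median in Y22-3, while *PXA1* rose, with 7.22 and 7.20 against 6.04 and 6.81.

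The difference between strains in the response to oxygen loss was tested on xylose. Relative to Y22-3, the change in Y127 was more positive for 27 genes and more negative for 3, where 65.3% and 8.90% of all genes differed in these directions, and for 19 and 12 after centring. All 10 enzyme-group genes were among the more positive ones under both scalings, with *POT1* at 5.58 ± 0.51. Relative to Y127, the change in Y128 was more negative for 24 genes, all 10 of the enzyme group included, and more positive only for *PEX31*, where 24.3% of all genes were more negative and 13.1% more positive. *CTA1* had the largest of these differences, at -6.50 ± 0.68 (limma adjusted p = 5.03e-07). Relative to Y22-3, the change in Y128 was more positive for 18 and more negative for 10, where 59.3% and 19.1% of all genes were, and for 10 and 17 after centring.

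Levels in anaerobic xylose were also compared between strains. All 10 enzyme-group genes were lower in Y128 than in Y127, by a median of -2.99 against -0.08 for all genes, and of the 39 genes 30 were lower and 1, *PEX31*, was higher, where 30.3% of all genes were lower and 25.9% higher (56.2% in all). *CTA1* fell by 6.19 ± 0.48, *FOX2* by 4.69 and *SPS19* by 4.38. Against Y22-3, 24 of the 39 genes were lower in Y128 and 9 higher, where 27.7% of all genes were lower and 58.2% higher, and 30 and 6 after centring. *CTA1* fell by 8.14 and *FOX2* by 6.74 in that comparison. Y127 and Y22-3 differed less in the enzyme group, with 2 genes higher and 4 lower (0 and 7 after centring), and over the 39 genes 15 were higher and 16 lower, where 61.2% and 20.4% of all genes were (81.6% in all). After centring 8 were higher and 24 lower.

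Xylose was also set against glucose within the anaerobic cultures. In Y127 18 of the 39 genes rose and 2 fell, where 21.8% of all genes rose and 28.4% fell (50.2% in all), and in Y22-3 20 rose and 13 fell, where 21.9% and 64.7% did (86.6% in all). After centring the Y22-3 counts were 29 and 6. In Y128 1 rose and 17 fell, where 12.3% and 26.5% did, and 2 rose and 10 fell after centring. Any 1 of the 4 Y128 libraries left out brought the Y128 count of 18 to between 7 and 10. The enzyme-group medians were 2.04 in Y127 (9 of 10 rose), 2.85 in Y22-3 (9 of 10 rose) and -0.95 in Y128 (0 of 10 rose and 7 fell, 4 after centring).

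*CTA1* carried the contrast here too. It was at 8.85 and 8.78 log2 RPKM in anaerobic xylose cultures of Y22-3, against 1.41 and 0.88 in anaerobic glucose, a difference of 7.67 ± 0.48. In Y127 it was at 6.07 and 7.65, against 3.19 and 1.34, and in Y128, where it did not pass, at 1.11 and 0.24, against 1.68 and 1.86. *FOX2* in Y128 was at 1.68 and 1.43 in anaerobic xylose, against 3.64 and 4.05 in anaerobic glucose, the largest fall of that comparison (-2.29 ± 0.35).

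The peroxins were described by role. Pex5 and Pex7 are the receptors that bind the targeting signals of imported enzymes, and Pex18 and Pex21 are paired partners of Pex7 in the import of Pot1. On glucose *PEX18* stood at 3.85 and 4.96 log2 RPKM without oxygen in Y22-3, against -0.62 and -0.97 with oxygen (5.20 ± 0.51). In Y127 it was at 4.63 and 4.98, against -0.95 and -0.37, and in Y128 at 3.97 and 4.03, against -1.28 and -3.59. Its aerobic glucose levels rested on 0 to 9 reads, and the lowest of them, in Y128 replicate B, on 0.

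In aerobic xylose *PEX18* was at 3.49 and 4.07 log2 RPKM in Y22-3, against -0.41 and -0.19 in Y127 and -0.62 and -1.04 in Y128. The difference of *PEX18* between xylose and glucose with oxygen in Y128 was 1.61, but 0.45 and no longer called without the glucose library with 0 reads. *PEX18* rose on oxygen loss on xylose in all 3 strains, by 4.68 in Y127, 2.56 in Y128 and 1.97 in Y22-3. Its aerobic xylose levels rested on 9 and 9 reads in Y127 and on 7 and 6 in Y128, so the changes in these 2 strains start near the floor. *PEX21* ran the other way on oxygen loss on xylose. It was at 0.25 and 0.18 in anaerobic xylose cultures of Y22-3, against 5.08 and 4.44 with oxygen (-4.55 ± 0.20, limma adjusted p = 1.30e-13), and fell by 1.51 in Y127 and by 2.57 in Y128. These falls exceeded the median of all genes in each strain, and the low values in Y22-3 rested on 17 and 15 reads.

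**Figure D4:**
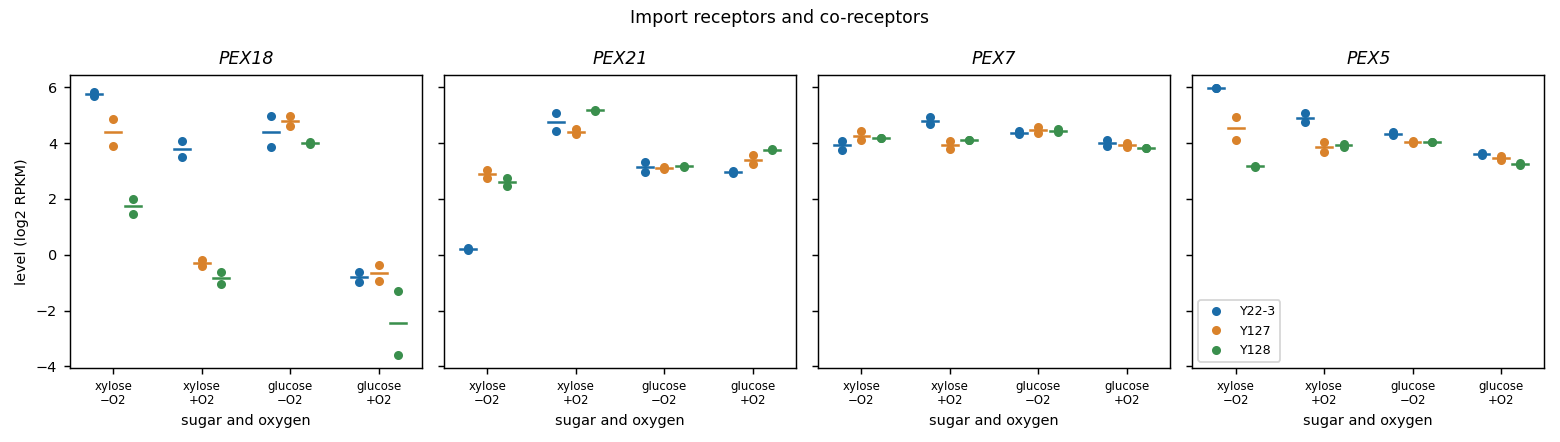
Level (log2 RPKM) of the import receptor and co-receptor genes by sugar and oxygen in each strain, with points for libraries and lines for the means of 2. *PEX18* lies above 3.8 in every anaerobic glucose library and below 0 in every aerobic glucose library, and *PEX21* lies below 0.3 only in anaerobic xylose cultures of Y22-3.

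The receptor genes themselves moved less than *PEX18*. *PEX5* was at 5.98 and 5.96 log2 RPKM in anaerobic xylose cultures of Y22-3, against 4.74 and 5.08 with oxygen, and at 3.19 and 3.13 in Y128, against 3.87 and 3.98. It thus rose in one strain and fell in the other. *PEX7* stayed between 3.77 and 4.94 in all 24 duplicated libraries.

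The docking, RING ubiquitin ligase and export complexes take the cargo across the membrane and recycle the receptors. Of these 12 genes, 5 rose in Y22-3, 4 in Y127 and 5 in Y128 on oxygen loss on glucose, where 37.7%, 35.3% and 39.6% of all genes rose. None of the 12 fell, where 27.6%, 32.9% and 28.8% of all genes fell in these strains. The counts that rose were thus near the share of all genes, and those that fell were below it. *PEX15*, which encodes a membrane anchor of the export machinery, had the largest change of the 12 in each strain, between 1.25 and 1.58. In anaerobic xylose cultures of Y22-3 the complexes moved apart. *PEX22*, the anchor of the ubiquitin-conjugating enzyme Pex4, stood at 4.92 and 5.10, against 2.14 and 2.27 with oxygen (2.80 ± 0.25), and the RING gene *PEX2* at 7.64 and 7.36, against 5.82 and 6.07.

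*PEX8*, whose product links the docking and RING complexes, was at 1.68 and 1.10 in the same anaerobic cultures, against 4.81 and 4.96 with oxygen (-3.50 ± 0.18). *PEX6* fell there too, with 3.02 and 2.42 against 4.73 and 4.80 with oxygen. In the other strains these genes were steadier. *PEX8* in anaerobic xylose was at 4.58 and 4.67 in Y127 and 3.94 and 3.85 in Y128, which are 3.23 and 2.50 above Y22-3. The change of *PEX22* on oxygen loss on xylose was more negative than in Y22-3 by -2.19 ± 0.36 in Y127 and by -3.26 ± 0.36 in Y128.

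Pex3 and Pex19 insert peroxisomal membrane proteins. *PEX3* was at 6.70 and 6.73 log2 RPKM in anaerobic xylose cultures of Y22-3, against 5.01 and 5.14 with oxygen, and at 3.02 and 3.36 in Y128, against 3.69 and 3.88. The anaerobic levels of Y22-3 and Y128 were thus more than 3 units apart. *PEX19* was at 3.19 and 3.38 in those cultures of Y22-3, against 2.49 and 2.12, and did not pass on oxygen loss in Y127 or Y128.

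Pex11, Pex25, Pex27 and Pex34 act in proliferation, and Pex28 to Pex32 regulate size and number from the endoplasmic reticulum and the peroxisomal membrane. *PEX11* was at 8.39 and 8.84 log2 RPKM in aerobic xylose cultures of Y22-3, against 5.88 and 5.94 in aerobic glucose. It was at 7.75 and 8.35 in anaerobic xylose cultures of Y127, against 6.70 and 6.64 with oxygen, and at 6.07 and 6.16 in Y128, against 6.83 and 6.92. *PEX25* did not follow it, with levels between 4.46 and 5.49 in every duplicated library other than the anaerobic xylose ones of Y22-3, where it was at 3.29 and 2.81.

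*PEX31* was the 1 gene of the 39 that passed the test as higher in Y128 than in Y127 in anaerobic xylose. In anaerobic xylose it was at 4.94 and 5.06 log2 RPKM in Y128, against 3.68 and 3.42 in Y127 and 1.90 and 1.99 in Y22-3, and was the gene of the 39 with the largest positive difference between Y128 and Y22-3 there (3.05 ± 0.17, limma adjusted p = 1.03e-12). On glucose it rose without oxygen in all strains, by 1.17 in Y22-3 and 1.79 in Y128. Its relative *PEX29* had its highest level in anaerobic xylose cultures of Y22-3, at 6.72 and 6.69, against 4.32 and 4.78 with oxygen.

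Inheritance depends on Inp1, which retains peroxisomes in the mother cell, and on Inp2, the receptor for the myosin that carries them to the bud. *INP2* was at 1.92 and 1.59 in anaerobic xylose cultures of Y22-3, against 4.09 and 3.67 with oxygen, and at 3.90 and 3.92 in Y127 and 3.68 and 3.76 in Y128 under the same condition. *INP1* stayed between 1.71 and 3.43 in all 24 duplicated libraries, and its change on oxygen loss on xylose in Y22-3 was -0.90, against a median of -1.28 for all genes, and 0.25, not called, after centring.

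The transcription factors of the pathway are not members of the set and are given for comparison. *ADR1* was at 8.02 and 7.84 log2 RPKM in aerobic xylose cultures of Y22-3, against 3.41 and 3.23 in aerobic glucose, and at 6.69 and 6.01 in Y127, against 3.05 and 3.18, and 6.67 and 6.69 in Y128, against 2.40 and 2.36. On oxygen loss on xylose it fell by 2.25 in Y128 and rose by 0.65 in Y127 and 0.80 in Y22-3. *PIP2* rose by 1.59 in Y22-3 with xylose in place of glucose in the presence of oxygen and did not pass in the evolved strains. *OAF1* changed by less than 1 unit in each of the oxygen and sugar comparisons on xylose and glucose within a strain, and *OAF3* fell by 2.72 on oxygen loss on xylose in Y22-3 alone.

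Other peroxisomal and fatty acid genes were counted by fixed lists. Of 12 accessory peroxisomal enzymes, 11 rose in Y22-3 with xylose in place of glucose in the presence of oxygen, where 31.0% of all genes rose, with the carnitine acetyltransferase gene *CAT2* at 8.34 and the peroxisomal citrate synthase gene *CIT2* at 6.19. All 5 carnitine shuttle genes, which share *CAT2* with that list, rose there too, as they did in Y127 (median 2.03), where 14.0% of all genes rose, and in Y128 (median 2.75), where 24.3% did. Of these 5, *YAT1* had at most 7 and *CRC1* at most 14 reads in aerobic glucose, and the Y127 median is the *YAT1* change. On oxygen loss on xylose all 5 rose in Y127, where 33.6% of all genes rose, with a median of 3.19, while in Y128 *YAT1* rose by 2.39, *CRC1* fell by 1.94 and the other 3 did not pass. Of the 4 genes for fatty acid activation outside the peroxisome only *FAA1* rose in Y22-3 with xylose in place of glucose (1.48), and the list median was -0.22.

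Among 4 genes for peroxisome fission and pexophagy, the pexophagy receptor gene *ATG36* rose on oxygen loss in every strain and on both sugars, by 1.51 to 3.13. The fission genes *FIS1* and *DNM1* fell by 1.41 and 1.15 in Y128 on oxygen loss on xylose, while in Y22-3 *FIS1* rose by 1.96 and *DNM1* fell by 1.77.

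The galactose and sorbitol cultures had 1 library per condition, so no test was made, the differences have no replicate check, and a change of 2-fold was used to describe them. In aerobic sorbitol, in which neither strain grew, 27 of the 39 genes of Y22-3 were at least 2-fold above aerobic glucose and 1 below, where 23.5% and 38.0% of all genes were. In Y128 32 were above and 1 below, where 27.4% and 26.2% were. All 10 enzyme-group genes were above in both strains, with medians of 6.44 in Y22-3 and 7.08 in Y128, against -0.46 and 0.02 for all genes. *POT1* was at 9.36 log2 RPKM in aerobic sorbitol in Y128 and at 8.35 in Y22-3, and in aerobic xylose it had been at 2.56 and 2.67 in Y128.

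In aerobic galactose, where both strains grew by their labels, 17 genes of Y22-3 were at least 2-fold above aerobic glucose and 0 below, where 17.1% and 4.33% of all genes were, and 18 of Y128 and 0 below, where 20.0% and 6.10% were. All 10 enzyme-group genes were above in both strains. The enzyme-group medians were 4.95 in Y22-3 and 3.57 in Y128, against 0.18 and 0.24 for all genes. *CTA1* was at 6.57 log2 RPKM in Y22-3 and 4.23 in Y128, and *POX1* at 6.56 in Y22-3 and 6.20 in Y128.

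Without oxygen the galactose libraries of the strains differed. In Y22-3 8 genes were at least 2-fold above aerobic galactose and 11 below, where 9.74% and 58.2% of all genes were, and 6 of the 10 enzyme-group genes were above and 0 below, with a median of 1.26 against -1.25 for all genes. In Y128 1 was above and 16 below, where 7.86% and 23.1% were, and 8 of the 10 enzyme-group genes were below, with a median of -1.32 against -0.51 for all genes. *CTA1* was at 9.84 in anaerobic galactose in Y22-3, against 6.57 with oxygen, and at 2.78 in Y128, against 4.23. After centring the Y22-3 counts were 20 and 3 and those of Y128 2 and 8. The anaerobic marker *DAN1* was at 5.94 in the Y22-3 library and at 11.50 in that of Y128.

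In anaerobic sorbitol most genes stood lower than in aerobic sorbitol, by a median of -1.81 over all genes in Y22-3 and -1.40 in Y128. Of the 39 genes 30 were at least 2-fold below and 1 above in Y22-3, where 72.2% and 4.69% of all genes were, and 38 below and 0 above in Y128, where 60.6% and 8.34% were. After centring 11 were below and 9 above in Y22-3, and 20 below and 1 above in Y128. *CTA1* remained high in anaerobic sorbitol in Y22-3, at 9.20 against 9.77 with oxygen, and was at 5.99 in Y128, against 8.87. The anaerobic marker *DAN1* was low in these libraries, at 1.42 in anaerobic sorbitol in Y22-3, against 1.04 with oxygen, and at 3.32 in Y128, against 1.79.

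**Figure D5:**
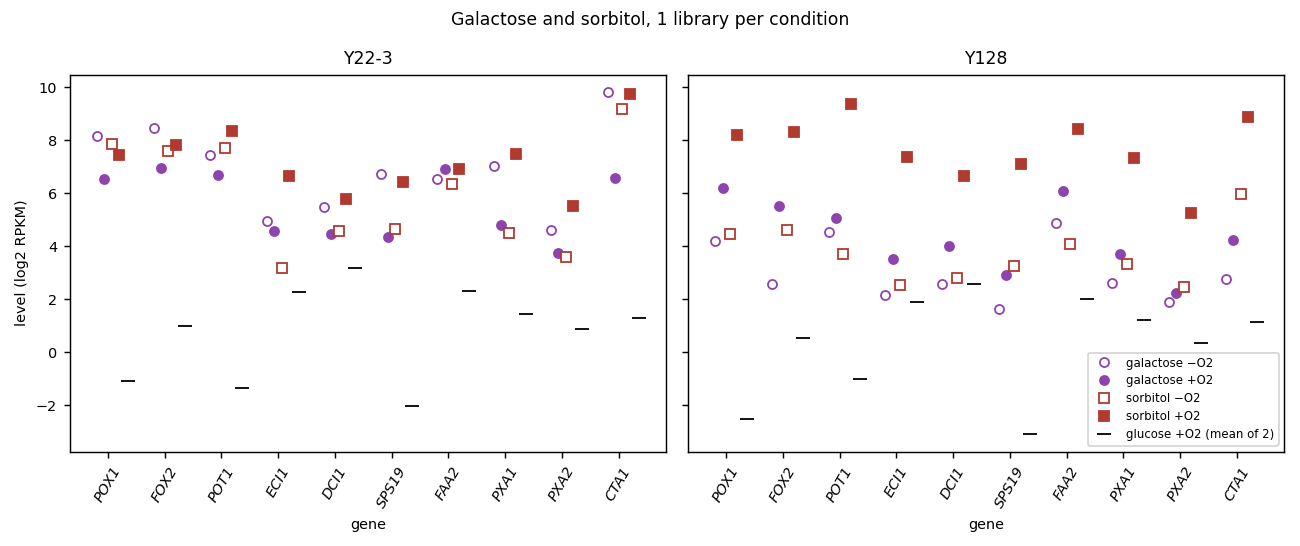
Level (log2 RPKM) of the 10 enzyme, transporter and catalase genes in the single galactose and sorbitol libraries of Y22-3 and Y128, open symbols without oxygen and filled symbols with oxygen, with dashes for the mean of the 2 aerobic glucose libraries. *CTA1* in anaerobic galactose lies at 9.84 in Y22-3 and at 2.78 in Y128.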

How the data were processed

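Transcript levels of the 3 strains were analysed from the deposited table of log2 RPKM, which the authors made by trimming reads with Trimmomatic (0.3.0 in the submitters' processing notes), mapping them to the Y22-3 genome with Bowtie2 2.2.2 and counting reads per gene with HTSeq 0.6.0. The strand setting of the count is not given in the sources used here. Replicate letters were not used for 4 columns (Y127 on glucose), whose names give the condition only. The study describes the duplicates as biological and collected on different days.

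A linear model over the 12 duplicated groups was fitted to the log2 RPKM values with limma 3.58.1 in R 4.3.3, with a variance trend, over the 5801 genes that averaged 1 RPKM or more, and 24 contrasts were drawn from it. P-values were adjusted by Benjamini-Hochberg over all 5801 genes and called under 0.05. With 2 libraries per group the standard errors pool the spread over genes and groups. Values are relative to library totals, so that a change in total RNA cannot be seen. The members and lists were chosen with earlier results of these data known. Each member was described by its role, and in each comparison up to 6 members with the largest called change in each direction were named; levels per library were given for the 10 enzyme, transporter and catalase genes. Other features singled out were chosen after their values were seen.

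Library totals and reads per gene were estimated from the steps of low values, with 1 added read assumed. With these totals 80.8% to 88.3% of values under 50 reads lay within 0.1 of a whole read, too few for a count test, so none was run. Read numbers in the text are such estimates, and counting error is only part of their error.

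In simulated data for xylose against glucose with oxygen in Y127, 64 of 100 2-fold and 99 of 100 4-fold changes were recovered among 5801 genes, with 4 unchanged genes called. Only 200 genes were changed there, with the same spread in every group, whereas 39.8% of all genes were called in the data. The recovered share is therefore not the power in these data. Alternatives were median centring, no filter, log2(RPKM + 1), fitting only the compared libraries, an added 2-fold requirement, a replicate block and leaving out each library. Promoters were searched with Python 3.11.15. Some members are counted in the totals but are not reported here by name.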

Additional observations from a re-analysis of the deposited data

Results flagged for a closer look

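The responses that differed between strains, by a test of the difference itself, were those of 30 of the 39 genes for oxygen loss on xylose in Y127 against Y22-3 (*POT1* 5.58, *PEX22* -2.19 as the largest in each direction), 25 genes in Y128 against Y127 (*PEX31* 1.44, *CTA1* -6.50) and 28 genes in Y128 against Y22-3 (*PEX8* 3.56, *PEX22* -3.26). Of all tested genes 74.2%, 37.5% and 78.3% differed in these comparisons, in the same order. The 2 counts against Y22-3 were thus near the share of all genes. The response to xylose with oxygen differed for 24 genes in Y127 against Y22-3 (*CTA1* -6.50), where 19.5% of all genes differed. It differed for 17 in Y128 against Y22-3 (*CTA1* -6.23), where 16.0% did. In Y128 against Y127 it differed for 0, where 2.12% of all genes did and limma gave 3 members with an unadjusted p under 0.05. The values beside gene names are differences of log2 changes, with adjusted p-values from limma under 0.05.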

How the results depend on the processing

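Depth limits the low end, since *POX1*, *POT1*, *SPS19* and *PEX18* had at most 21 reads in aerobic glucose. *PEX18* also had at most 9 reads in aerobic xylose cultures of Y127 and Y128. With 2 libraries per group 64 of 100 changes of 2-fold were recovered in a simulation with far fewer changed genes than were called in the data. The members with the largest called changes, up to 6 in each direction of a comparison, kept their direction under every alternative run. They were picked for their size in the same data, so a reversal was unlikely. Of their 184 changes 5 lost the call after centring, 7 with only the compared libraries and 14 with the 2-fold requirement. Over all members, 27 of 563 called changes had the other sign after centring, all 27 in comparisons with Y22-3 in anaerobic xylose. The settings log2(RPKM + 1) and the replicate block moved no count by over 1.5 times. The replicate block could be fitted for 19 counts. Letters were not taken as pairs in the main model. The difference between letters correlated above 0.1 in 7 of 45 group pairs, and all 45 ran from -0.105 to 0.332. Every pair among Y22-3 aerobic xylose, Y22-3 anaerobic glucose, Y128 anaerobic glucose and Y127 anaerobic xylose was above 0.1, at 0.111 to 0.332. A deviation shared by letter in these groups was not modelled in the main fit.

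Counts under an alternative setting, here and above, show only how the member counts moved. The shares of all genes given earlier are for the main setting and do not apply to them. With a further 2-fold requirement the genes called on oxygen loss on glucose numbered 12 for Y22-3, 15 for Y127 and 16 for Y128. On xylose they numbered 19 for Y127 and 8 for Y128. For xylose against glucose they were 6 in Y127 and 12 in Y128 with oxygen, and 12 in Y127 and 6 in Y128 without oxygen. In aerobic xylose they were 19 for Y127 against Y22-3, 0 for Y128 against Y127 and 19 for Y128 against Y22-3, and in anaerobic xylose 18 for Y128 against Y127. With only the compared libraries 26 were called for oxygen loss on xylose in Y128 (17 in the full model), 20 for Y127 against Y22-3 and 0 for Y128 against Y127 in aerobic xylose, the last also 0 with no filter. Centring gave 20 for xylose against glucose with oxygen in Y127, and 20 in Y22-3 and 21 in Y128 for oxygen loss in sorbitol and 10 in Y128 for galactose past 2-fold.

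Leaving out 1 library gave 7 to 18 genes for xylose against glucose with oxygen in Y127 (7 without Y127 aerobic glucose replicate 1), 7 to 10 for xylose against glucose without oxygen in Y128, and 0 to 1 for Y128 against Y127 in aerobic xylose. The response to xylose differed for 15 to 32 genes in Y127 against Y22-3 (15 without Y127 aerobic xylose replicate B) and 0 to 3 in Y128 against Y127 (3 without Y127 aerobic xylose replicate A).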
